A study of Mus musculus with 4 samples.

Results

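Of 37888 open chromatin regions that WT and IRF8KO microglia shared, 1134 were weakened in IRF8KO, and these weakened regions are described here. Microglia are the resident macrophages of the brain. ATAC-seq, in which the Tn5 transposase cuts accessible DNA, had been applied to sorted microglia in 4 libraries, 2 with the genotype WT and 2 with the genotype IRF8KO, all from untreated C57BL/6 mice 3 months old. The labels give neither the allele behind IRF8KO, nor the cells it acts in, nor whether the replicates came from separate animals, so the spread between replicates may be technical. The deposited data are peak lists called in each library by itself, with a pileup (the depth of extended cut sites at the summit) for each peak. Peaks on the autosomes with a pileup of at least 0.25 per 1000000 tags were merged into 93341 regions, and 37888 of these held such a peak in all 4 libraries. The largest pileup in a region was divided by the library's median over the shared regions, and this quotient is called the level. Members were defined by the level itself: the lower WT level had to be at least 2 times the higher IRF8KO level, which kept 1134 regions, or 2.99% of the shared ones. The mirrored rule found 1716 regions strengthened in IRF8KO, or 4.53%, and left 35038 other shared regions. Because the rule used the comparison of genotypes, the levels are given as a description with no test, and only position and sequence bear on anything the rule did not use. Without IRF8KO replicate 1 the rule gave 2585 members, and 278 of the 1134 members lay under 0.3 pileup per 1000000 tags in that library, close to the floor of 0.25.

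IRF8 belongs to the interferon regulatory factors (IRFs), DNA-binding proteins, and myeloid cells, microglia among them, need it for their development and for responses to interferon and pathogens. It binds DNA weakly alone. With PU.1, an ETS-family factor that sets up the enhancers of macrophages and microglia, it binds the ETS-IRF composite element, in which an ETS core (GGAA) stands a fixed distance before an IRF core (GAAA). With other IRF proteins it binds interferon-stimulated response elements (ISREs), which hold IRF cores in a row, and with BATF-type AP-1 factors it binds AP-1-IRF elements. Below, ETS-IRF stands for GGAA, then 2 bases of any kind, then GAAA, ISRE for GAAA, then 2 bases, then GAAA, and IRF-ETS for GAAA, then 2 or 3 bases, then GGAA. Each was searched on both strands within 100 bp of the region's highest summit, so 1 stretch of DNA may match more than 1 of them.

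The sequences of the strongest members show what this search reads. Among the 25 members with the largest ratio, 4 held ETS-IRF, and their 201 bases around the summit are given first, with ETS-IRF in capitals (on the other strand it reads TTTC, 2 bases, TTCC). They lay in an intron of Taok3 (chr5:117158765-117158965), in an intron of Kcnma1 (chr14:23825066-23825266), in an intron of the non-coding gene 4930512J16Rik, 40334 bp from the nearest protein-coding start, that of Plxna1 (chr6:89280655-89280855), and in an intron of the non-coding gene Gm30411, nearest to Ipo11 (chr13:106760268-106760468). The next 3 are the first members by ratio with none of the 3 IRF motifs. They lay between genes 30.3 kb from the start of BC067074 (chr13:113381804-113382004), in an intron of Pde8b (chr13:95033053-95033253) and between genes 56.7 kb from the start of Ptcd2 (chr13:99287913-99288113). In those 3 the capitals mark ETS-IRF with exactly 1 of its 8 fixed bases changed. All coordinates and letters are of GRCm38, plus strand.
Taok3: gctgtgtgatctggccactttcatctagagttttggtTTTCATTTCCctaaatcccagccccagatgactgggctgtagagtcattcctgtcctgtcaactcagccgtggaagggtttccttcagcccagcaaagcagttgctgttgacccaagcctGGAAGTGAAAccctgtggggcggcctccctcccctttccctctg
Kcnma1: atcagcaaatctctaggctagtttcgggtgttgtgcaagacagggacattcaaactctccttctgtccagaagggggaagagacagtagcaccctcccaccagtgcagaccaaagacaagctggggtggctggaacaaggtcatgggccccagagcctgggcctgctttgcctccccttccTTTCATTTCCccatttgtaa
Plxna1: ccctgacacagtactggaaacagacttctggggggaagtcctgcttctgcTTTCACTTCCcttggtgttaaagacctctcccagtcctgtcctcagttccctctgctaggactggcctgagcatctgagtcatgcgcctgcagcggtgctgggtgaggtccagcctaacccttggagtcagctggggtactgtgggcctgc
Ipo11: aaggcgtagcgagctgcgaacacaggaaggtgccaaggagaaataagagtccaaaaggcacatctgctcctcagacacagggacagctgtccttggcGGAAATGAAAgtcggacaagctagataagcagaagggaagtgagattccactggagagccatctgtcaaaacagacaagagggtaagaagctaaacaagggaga
BC067074: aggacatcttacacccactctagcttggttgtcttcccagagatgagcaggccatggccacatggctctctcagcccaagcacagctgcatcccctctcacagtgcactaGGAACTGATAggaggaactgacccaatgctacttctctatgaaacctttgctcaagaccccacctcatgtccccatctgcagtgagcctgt
Pde8b: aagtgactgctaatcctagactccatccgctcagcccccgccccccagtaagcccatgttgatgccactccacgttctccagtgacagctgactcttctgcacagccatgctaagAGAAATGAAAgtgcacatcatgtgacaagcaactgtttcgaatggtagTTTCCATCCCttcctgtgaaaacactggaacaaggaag
Ptcd2: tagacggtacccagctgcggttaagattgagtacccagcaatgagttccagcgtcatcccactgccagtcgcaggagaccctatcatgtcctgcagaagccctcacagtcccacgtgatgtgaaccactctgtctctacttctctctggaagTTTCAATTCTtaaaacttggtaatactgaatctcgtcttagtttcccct

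Some members at genes of microglial function held the same element, and the 41 bases around it are given for 5 of them (ETS-IRF in capitals). They lay in an intron of P2ry6, which encodes a receptor for uridine nucleotides, with the start of Arhgef17 as the nearest (chr7:100944483-100944523), in an intron of Slc2a5, which encodes a fructose transporter (chr4:150136747-150136787), 2.83 kb from the start of Lyz2, which encodes lysozyme (chr10:117285164-117285204), 9288 bp from the start of Il1b, which encodes interleukin 1 beta (chr2:129380382-129380422), and in an intron of Ncf4, which encodes a subunit of the phagocyte NADPH oxidase (chr15:78257373-78257413). They were picked because they held it. Of the 39 members in or within 10 kb of a gene of the lists used below, 10 held ETS-IRF (25.6%, 95% Wilson interval 14.6 to 41.1). That interval includes the 19.7% of all members. Those at Selplg, Csf1r, Tlr4 and H2-Ab1 were among the ones without it.
P2ry6: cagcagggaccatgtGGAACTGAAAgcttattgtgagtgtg
Slc2a5: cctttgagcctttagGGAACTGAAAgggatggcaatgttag
Lyz2: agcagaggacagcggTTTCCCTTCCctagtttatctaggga
Il1b: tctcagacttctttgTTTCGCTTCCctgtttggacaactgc
Ncf4: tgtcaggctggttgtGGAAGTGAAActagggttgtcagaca

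The libraries differed in ways that follow genotype. They held 46948938 and 48896408 tags in WT and 78793572 and 66224648 in IRF8KO, and the tag size was 50 bp in WT and 49 bp in IRF8KO, so depth, tag size and genotype cannot be told apart. IRF8KO replicate 1, the deepest, had the fewest autosomal peaks past the floor, 50837 against 68931 to 79771 in the others. The promoters of all 10 microglia markers, Csf1r, Cx3cr1 and P2ry12 among them, held a peak past the floor in all 4 libraries. Their summed pileup was 28.7 and 21.2 per 1000000 tags in WT and 13.5 and 21.7 in IRF8KO. The 6 endothelial marker promoters summed to 8.12 and 6.94 in WT and 1.82 and 2.69 in IRF8KO, of which the Cdh5 promoter gave 5.86, 4.81, 0.647 and 0.936. Without Cdh5 the other 5 summed to 2.26, 2.13, 1.17 and 1.75. The 6 oligodendrocyte promoters summed to 2.59 and 2.29 in WT and 0.837 and 1.51 in IRF8KO, with Mag at 0 in all 4 libraries. The sum of the 7 border macrophage promoters went the other way, with 1.49 and 1.04 against 3.43 and 5.57. Of these, Mrc1, Cd163, Pf4 and Ms4a7 were higher in both IRF8KO libraries, while Lyve1, Cd209f and Clec10a did not separate the genotypes. Promoters of the 6 B or T cell markers summed to 1.45 and 1.31 against 3.58 and 3.55, of which Cd3d gave 0.873, 1.08, 3.44 and 3.44, and without Cd3d the sum was lower in IRF8KO. The 8 monocyte or neutrophil promoters summed to 1.36 and 0.757 in WT and 0.28 and 0.619 in IRF8KO, of which Ltf gave 0.958, 0.491, 0 and 0.196. Without Ltf these sums of the genotypes overlapped, and Camp was at 0 in WT and at 0.102 and 0.166 in IRF8KO. For astrocytes and neurons the sums of the genotypes overlapped. Members made up 6 of the 67 shared regions in or within 10 kb of a marker gene of another cell type (8.96%, 4.17 to 18.2), above the 2.99% of all shared regions. They were 3 at Mbp and 1 each at Pecam1, Cdh5 and Ccr2. Strengthened regions lay there too, 2 at border macrophage and 2 at astrocyte markers. The monocyte or neutrophil, oligodendrocyte and B or T cell markers had 1 strengthened region each. The part of other cells in the members was not tested. The Irf8 gene had 6 shared regions in or near it and none was a member. With the allele unknown, this checks nothing about the labels.

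In WT the members were taller than most shared regions, and in IRF8KO they were among the lower ones. The median level of the 1134 members was 1.84 and 1.82 in the WT libraries and 0.517 and 0.553 in the IRF8KO libraries, where 1 is the median of all shared regions. As pileup these medians were 107, 89, 30 and 42. A count of that size has a 95% Poisson interval of 87.7 to 129, 71.5 to 110, 20.2 to 42.8 and 30.3 to 56.8, counting error only. The median member stood at percentile 72.8 and 72.1 of the shared regions in WT and at 20.1 and 23.1 in IRF8KO. Of the members, 809 (71.3%) were above the median in both WT libraries and below it in both IRF8KO libraries. The rule asks for a peak in every library, and 1115 of the 1134 were called with −log10 q of 2 or more in all 4. The ratio of the lower WT to the higher IRF8KO level had a median of 2.51, reached 4.2 at the 90th percentile and was 13.6 at most. It was at least 3 in 345 members, at least 5 in 61 and at least 8 in 8. Nothing in these values set the members apart from the regions just below the threshold. From 1.9 to under 2 there were 177 regions, and from 2 to under 2.1 there were 166. The 3 nearest regions outside had ratios of 1.997, 1.998 and 1.999.

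**Figure D1:**
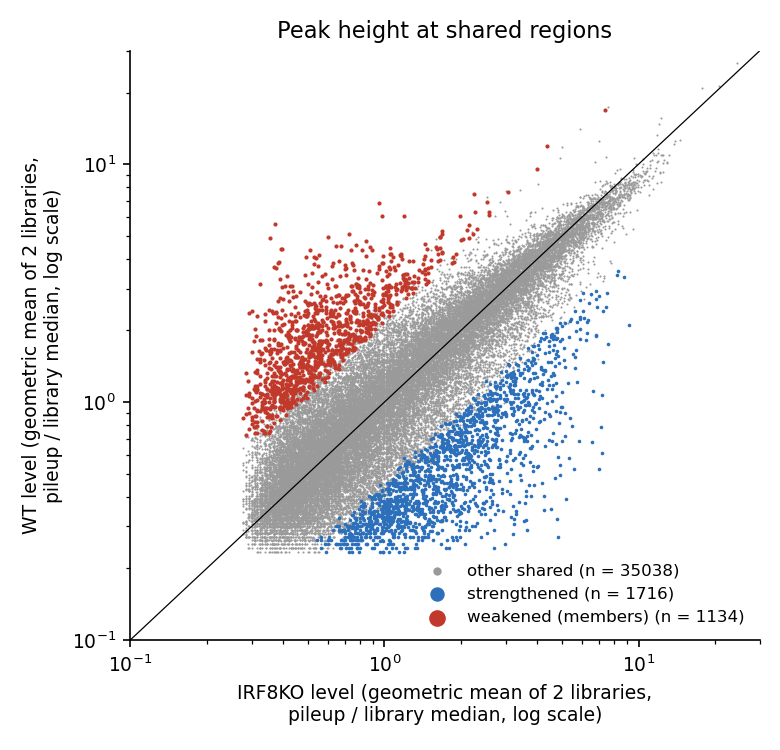
Each point is 1 of the 37888 shared regions, with its IRF8KO level across and its WT level upward (geometric means of 2 libraries, log scales), and the line marks equal levels. The 1134 members (red) lie above the line and the 1716 strengthened regions (blue) below it, and both merge into the other 35038 (grey) without a gap.

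Replicates of a genotype lay close together at the members, and nearly as close over all shared regions. The quotient of WT replicate 1 over replicate 2 had a median of 1.03, with 0.852 and 1.23 at the 10th and 90th percentiles. Over all shared regions those percentiles were 0.741 and 1.31. None of the members differed 2-fold or more between the WT replicates, against 0.742% of all shared regions. For IRF8KO the median was 1.01 (0.725 to 1.37), and 9 members (0.794%) differed 2-fold or more. Over all shared regions the IRF8KO median was 1.05 (0.749 to 1.43), and 1.13% differed 2-fold or more. The rule favours such agreement, since it takes the lower WT and the higher IRF8KO value.

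Agreement between pairs of libraries is given as a further description, since the shared regions needed a peak in all 4 libraries and the member rule used all 4 levels. Regions were chosen by a level at least 2 times higher in 1 WT than in 1 IRF8KO library and then read in the other WT and the other IRF8KO library. Chosen on WT replicate 1 and IRF8KO replicate 1, 1353 of 2351 regions kept a ratio of 2 or more, which is 57.5%, against 5.97% of all shared regions in the same 2 libraries. The other choices gave 56.8% of 2295 against 5.81%, 59.2% of 2202 against 6.06%, and 59.8% of 2261 against 6.21%. The 4 choices rest on only 2 overlaps, of 1353 and 1303 regions, each read in both directions. The mean of the 4 was 58.3% ± 1.42 (SD over the 4 choices, which share libraries). Scaled by the tags of each library in place of the median, the mean was 55% with an SD of 37, so the spread between choices depended on the scaling. Between 93.0% and 97.8% of the chosen regions had a ratio above 1 in the other pair, and the median ratio there was 2.15 to 2.24, against 0.955 to 1.04 for all shared regions. These shares describe the 4 libraries that defined the members and are no independent support for them.

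The largest ratios were at regions that were tall in WT and low in IRF8KO. The Taok3 intron, in a gene for a protein kinase, had pileups of 353 and 255 in WT and 21 and 29 in IRF8KO, and its ratio was 13.6. The Kcnma1 intron, in the gene of a calcium-activated potassium channel, had 279 and 244 against 23 and 24, with a ratio of 12.1. The region near BC067074 had 228 and 184 against 22 and 29 (ratio 9.84). The floor corresponds to a pileup of 19.7 in IRF8KO replicate 1 and 16.6 in replicate 2, so the values of these 3 stood close to it in replicate 1 and further above it in replicate 2. The promoter of Tnfsf13b, which encodes the B-cell survival factor BAFF, was the first promoter by ratio, with 216 and 176 against 23 and 27 (9.06), and it held ISRE and IRF-ETS. Pde8b, a cyclic AMP phosphodiesterase gene, had 178 and 156 against 21 and 22 1.1 kb from its start (8.48). The first 25 also included an intergenic region 9.99 kb from the start of Cdh23, the tallest of them in WT, with 399 and 336 against 50 and 80 (6.51), and the promoter of Lat2, an adaptor of immune receptor signalling, with 149 and 142 against 24 and 28 (6.21). In all 25 the WT and IRF8KO levels were separated by a wide gap, as the rule requires.

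**Figure D2:**
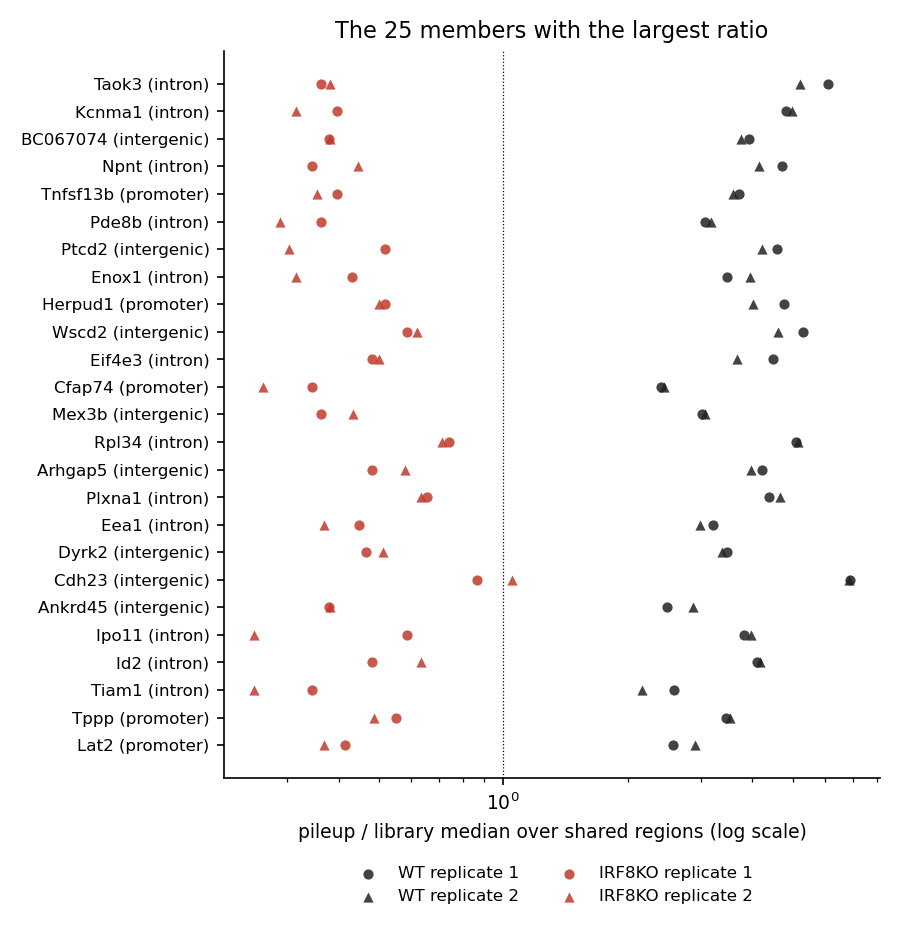
Levels (pileup divided by the library median, log scale) of the 25 members with the largest ratio in the 4 libraries, each named by the nearest protein-coding start and its place. Both WT libraries (black) lie above 2 and both IRF8KO libraries (red) lie near or below 1 at each of them, with replicate 1 as circles and replicate 2 as triangles.

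Weakened regions were mostly over 1 kb from a transcription start site (TSS). Of the members, 195 (17.2%, 95% Wilson interval 15.1 to 19.5) had their summit within 1 kb of a TSS, against 42.8% (42.3 to 43.4) of the other shared regions. Introns held 47.3% of members against 30.7%, intergenic DNA 31.0% against 22.6%, and 10.8% lay over 50 kb from any TSS against 5.17%. Read the other way, 1.26% of shared promoters were members, against 4.44% of intronic and 3.96% of intergenic shared regions. Members had a median TSS distance of 8491 bp and the others of 2181 bp, while the median length was alike, 442 and 444 bp. Strengthened regions were at least as distal, with 13.6% at promoters (12.0 to 15.3), so the low promoter share was common to both directions of change.

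Of the motifs searched, ETS-IRF was the one gained by the most percentage points in members. It was found within 100 bp of the summit in 223 members (19.7%, 17.5 to 22.1), in 3.59% (3.4 to 3.79) of other shared regions and in 2.33% of strengthened regions. In windows moved by 2000 bp the share was 1.72% at members and 2.01% at the others. Among regions over 1 kb from a TSS the shares were 20.6% and 4.59%, and among promoters 15.4% and 2.24%. The other IRF motifs differed less. IRF-ETS stood in 16.9% of members and 10.3% of other shared regions, and ISRE in 6.08% and 3.11%. AP-1-IRF, searched as GAAA directly before the AP-1 word or TTTC 4 bases before it, was rare, in 6 members (0.529%, 0.243 to 1.15), 0.186% of other shared regions (0.146 to 0.236) and 0.408% of strengthened regions. An optimal PU.1 word, GAGGAAGT, stood in 17.1% and 10.3%. Over the distal regions alone PU.1 stood in 17.9% against 14.5%, with intervals of 15.6 to 20.5 and 14.0 to 15.0. Other factors of microglial enhancers showed little difference there: the AP-1 word (TGAGTCA or TGACTCA) stood in 7.67% and 7.56%, and the CEBP word TTGCNNAA in 9.58% (7.86 to 11.6) and 11.2%. The KLF-SP word GGGCGG was less common in members, at 8.82% (7.3 to 10.6) against 27% of other shared regions, and at 5.75% (4.43 to 7.43) against 8.61% over the distal regions alone. Also lower was the motif of CTCF, which anchors chromatin loops, in 0.852% of distal members (0.432 to 1.67) against 5.02% of other distal regions. Both were low in strengthened distal regions too, KLF-SP at 6.2% (5.09 to 7.55) and CTCF at 0.337% (0.144 to 0.787).

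**Figure D3:**
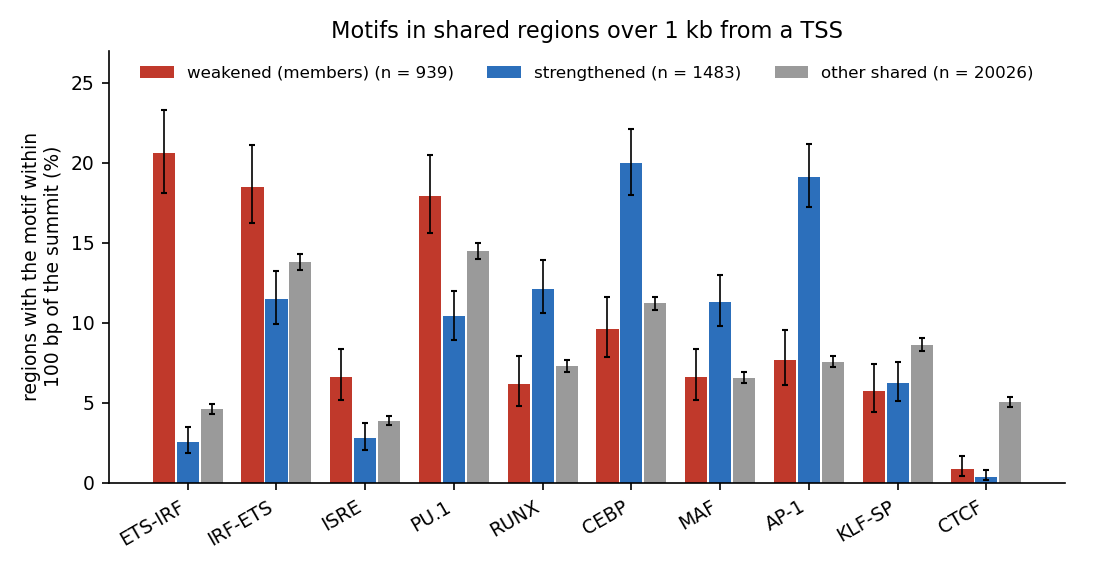
Share of shared regions over 1 kb from a TSS with each motif within 100 bp of the summit, for members (red, n = 939), strengthened regions (blue, n = 1483) and other shared regions (grey, n = 20026), with 95% Wilson intervals. ETS-IRF stands at 20.6% in members against 4.59% and 2.56%, while AP-1 and CEBP are highest in the strengthened regions.

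Members were taller in WT than the other distal regions, with a median WT level of 1.85 against 0.778, so motif shares were read within ranges of that level. At a WT level of 1 to under 2, ETS-IRF stood in 17.7% of 453 distal members and 6.09% of 4846 other distal regions. From 2 to under 4 it stood in 24.6% of 354 and 9.32% of 2339, and at 4 or more in 24.1% of 58 and 9.26% of 443. IRF-ETS kept its difference in the lowest range, from 0.5 to under 1, where it stood in 25.7% of 74 members (17.1 to 36.7) and 12.8% of 7287 others, but not above it: from 1 to under 2 it stood in 16.6% of members (13.4 to 20.3) and 17.3% of the others (16.3 to 18.4), and from 2 to under 4 in 18.9% and 17.9%. PU.1 was at 19.0% and 17.6% in the lower range and at 16.7% and 19.0% in the higher. Among these 4 motifs only ETS-IRF had intervals that stayed apart in each range. For ISRE the shares were 10.8% and 3.75% in the lowest range, with intervals that did not overlap, and 6.4% and 4.27% from 1 to under 2, with overlapping intervals (4.49 to 9.04 and 3.74 to 4.88).

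**Figure D4:**
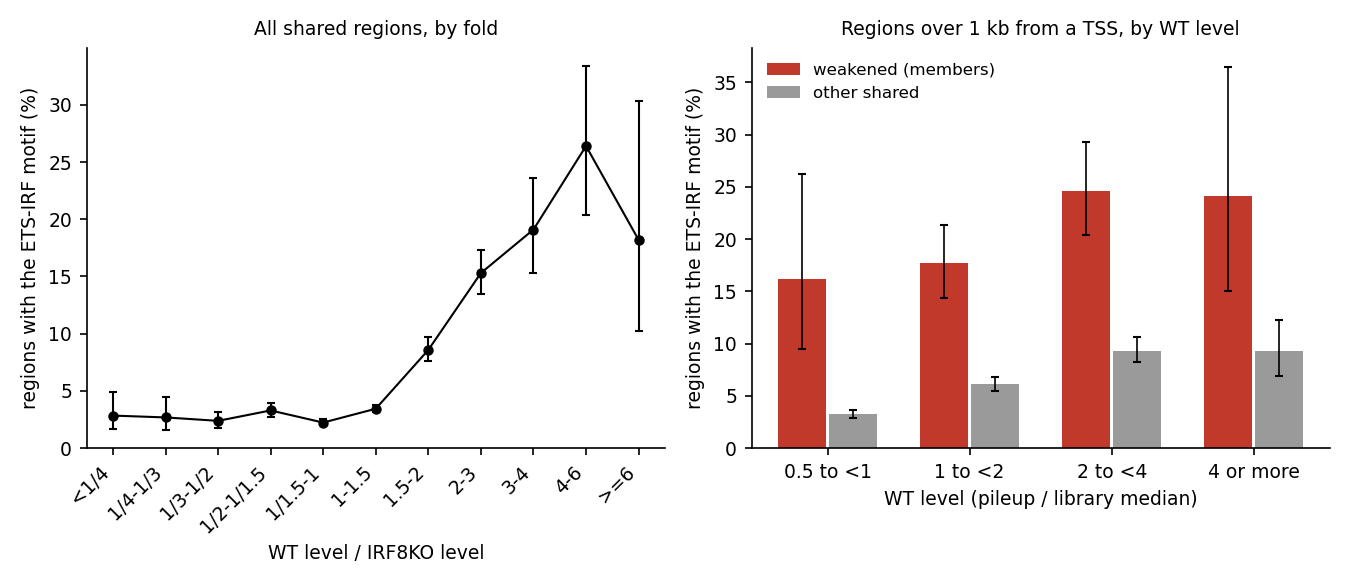
Share of regions with ETS-IRF and its 95% Wilson interval, left over all shared regions by the WT level divided by the IRF8KO level, right over regions over 1 kb from a TSS by WT level for members (red) and other shared regions (grey). On the left the share is 2.23% to 3.44% in every range up to 1.5 and then climbs to 26.4% from 4 to 6, with 18.2% at 6 or more, and on the right members stand above the others in all 4 ranges.

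Across all shared regions the ETS-IRF share was higher at folds above 1.5. It lay between 2.23% and 3.44% in every range of fold up to 1.5, was 8.58% from 1.5 to 2, 15.3% from 2 to 3, 19.1% from 3 to 4 and 26.4% (20.4 to 33.4) from 4 to 6. In the 55 regions at 6 or more it was 18.2% (10.2 to 30.3). Among the members the ratio itself made less difference. The share was 16.8% (13.9 to 20.1) for ratios of 2 to under 2.5, 25% (19.8 to 31) from 2.5 to under 3, and 21.9% of the 32 members at 6 or more (11 to 38.8). The motif did not mark a weakened region by itself. Of the 1520 shared regions that held it, 223 (14.7%, 13 to 16.5) were members and 40 were strengthened, and the median fold of WT over IRF8KO was 1.27, with quartiles of 0.924 and 1.85.

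The contrast depended on the distance between the cores. Pairs of GGAA and a following GAAA were counted with 0 to 12 bases between them. With 2 bases, the spacing of ETS-IRF, the share was 19.7% in members against 3.59%. With 1 base it was 2.29% against 2.19%, and with 3 bases 5.82% against 2.92%. With 4 bases it was 3.26% (2.38 to 4.46) against 2.14% (1.99 to 2.3), and with 5 bases 1.94% against 1.77%. From 8 to 12 bases the members again stood above the others, by less, with 4.14% (3.13 to 5.47) against 1.75% at 8 bases, 4.06% against 1.85% at 9 and 2.82% (2.01 to 3.96) against 1.85% (1.71 to 1.99) at 11, and with intervals that did not overlap at each of these spacings. Members also held a pair of GAAA with 1 base between in 7.58% (6.18 to 9.27) against 2.31%, a larger contrast than at the ISRE spacing of 2 bases (6.08% against 3.11%). Of those 86 members, 46 also held ETS-IRF. In the 911 members without ETS-IRF the pair with 1 base stood in 4.39%, against 1.34% of the 33781 other regions without it. Where ETS-IRF was present the pair stood in 20.6% of the 223 members and 28.2% of the 1257 other regions. An ETS-IRF with A as the first base between its cores contains this pair, so these 2 shares do not count a separate element. That base was A in 18.3% of the copies in members and 26.6% of those in other shared regions.

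**Figure D5:**
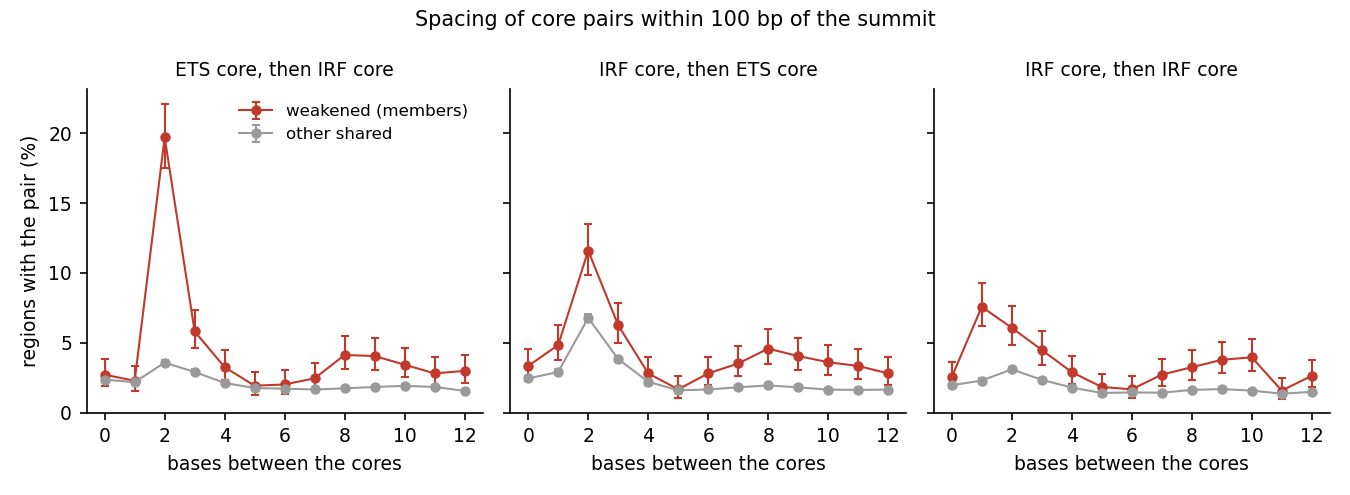
Share of regions with 2 cores in the same orientation at each number of bases between them, for members (red) and other shared regions (grey) with 95% Wilson intervals; the panels pair an ETS core with a following IRF core, an IRF core with a following ETS core, and 2 IRF cores. The member peak of 19.7% at 2 bases in the first panel is the tallest point of the 3 panels, followed by 11.6% at 2 bases in the second.

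The 2 bases inside ETS-IRF were not equal. Read from GGAA, regions with GT between the cores were members in 70 of 345 cases (20.3%, 16.4 to 24.8), those with CA in 30 of 130 (23.1%) and those with AT in 36 of 172 (20.9%). With AG the count was 4 of 128 (3.12%, 1.22 to 7.76) and with AA 1 of 68 (1.47%, 0.26 to 7.87), near the 2.99% of all shared regions. The median fold was 1.41 with GT and 1.01 with AG. Copies of ETS-IRF were counted only within 100 bp of the summit. Of the 230 copies in members 67.0% were within 50 bp of it, against 57.3% of the 1286 copies in other shared regions. Within 25 bp the shares were alike, 26.5% and 24.6%. Only 7 members held more than 1 copy.

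Most members, 716 of 1134 (63.1%), held none of the 3 IRF motifs, and their median ratio was 2.45, against 2.6 for the 223 with ETS-IRF. Near matches were common in them. ETS-IRF with exactly 1 of its 8 fixed bases changed stood in 52.2% (48.6 to 55.9) of these 716, against 25.4% (24.9 to 25.9) of the 29592 other shared regions without an IRF motif. Which base had changed made a difference. With the first G changed the share was 16.2% (13.7 to 19.1) against 3.29%, and with the second to last A changed it was 14.0% (11.6 to 16.7) against 4.77%. With the second G changed it was 1.68% against 1.37%, and with the third base, an A, 2.93% against 2.44%. A second G changed to A gives the ISRE word, which these regions lack by selection. The share at that base was therefore limited beforehand in both classes. An unguided count of all 8192 words of 7 bases, made after these values had been seen, led to the same letters. In distal members without an IRF motif the word that differed most was GAAGTGA, found in 146 of 569 (25.7%, 22.2 to 29.4) against 10.2% of 15959 other such regions. Next came GGAAGTG, 31.1% against 20.7%, and AAGTGAG, 14.9% against 6.35%. The words most depleted were AGAGGGC (4.57% against 10.1%) and CCACAAG (1.76% against 6.12%).

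Genes with members in or within 10 kb numbered 940 among protein-coding genes, while 202 members were near no gene. The gene lists below were tallied as the share of shared regions in or within 10 kb of their genes that were members, beside 2.99% over all shared regions. Among genes of microglial identity it was 11 of 205 (5.37%, 3.02 to 9.35), at P2ry6, Cx3cr1, Csf1r, Slc2a5, Selplg, Tgfbr2, Adgrg1, Golm1 and Crybb1, with 10 strengthened. The largest ratio of this list was at a region 4.49 kb from the start of Selplg, which encodes a selectin ligand, with 187 and 151 in WT against 30 and 37 in IRF8KO (ratio 5.96). The Slc2a5 intron had 171 and 102 against 33 and 38 (3.66), and the P2ry6 intron had 193 and 160 against 63 and 50 (3.01). An intron of Csf1r, the receptor microglia need to survive, had 140 and 101 against 37 and 59 (2.66).

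Transcription factor genes had 8 members among 291 regions (2.75%) and 15 strengthened. Batf3, which encodes an AP-1 factor that acts with IRF8 in dendritic cells, had 2 members beyond its 3′ end, 14.6 kb from its start with 115 and 90 against 23 and 46 (3.03) and 10.8 kb from its start with 151 and 157 against 53 and 53 (2.85). Smad3, a mediator of TGF-beta signals, had an intronic member with 98 and 87 against 29 and 23 (3.38), and introns of Fli1 and Runx1 had members with ratios of 2.53 and 2.51. The share near these genes did not stand above that of all shared regions.

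Interferon and antigen presentation genes had members at shares whose intervals include that of all shared regions. In the interferon list 4 of 158 regions (2.53%) were members and 12 were strengthened. The Mx1 promoter, of an interferon-induced GTPase, had 99 and 95 against 20 and 23 (4.95), and a region in the untranslated exons of Irf5, a related IRF, had 100 and 99 against 23 and 41 (3.2) and held ETS-IRF. Members near Ifngr2 and Irf2 had ratios of 2.31 and 2.14. In the antigen presentation list 4 of 93 (4.3%, 1.69 to 10.5) were members and 1 was strengthened. The promoter of Cd74, the invariant chain of MHC class II, had 115 and 117 against 31 and 47 (3.21) and held ETS-IRF. The promoter of H2-Ab1, a class II chain, had 155 and 139 against 68 and 96 (2.12), and an intron of Cd86, a co-stimulatory ligand, had 78 and 60 against 25 and 35 (2.66).

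In the list of pattern recognition and inflammation 5 of 151 (3.31%) were members and 11 strengthened. The Il1b region had 95 and 83 against 27 and 21 (3.52), an intron of Tlr4, the receptor for lipopolysaccharide, had 118 and 90 against 34 and 38 (3.13), and the promoter of Tlr9, a receptor for unmethylated DNA, had 189 and 151 against 66 and 103 (2.27). Ncf4 had 66 and 63 against 25 and 25 (2.64). The Il1b and Ncf4 members held ETS-IRF. Disease-associated microglia genes had 2 of 111 (1.8%), near Lgals3 (96 and 94 against 27 and 34) and Lyz2 (120 and 108 against 24 and 55), the phagocytic and complement list had 1 of 138 (0.725%, at Itgb2), and lysosome genes 2 of 147 (1.36%, at Psap and Scarb2). The control list of housekeeping and cell cycle genes had 2 of 113 (1.77%), 1 in an intron of Cdk6 and 1 at the promoter of Iffo1 beside Gapdh. All these intervals include 2.99%, except that of the identity list, whose lower bound was 3.02%.

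Some member promoters were chosen for mention after their values had been seen. The promoter of Bbc3, which encodes the pro-apoptotic protein PUMA, had 231 and 188 against 46 and 42 (4.84) and held ETS-IRF, IRF-ETS and ISRE. The Cdh5 promoter, of the endothelial adhesion protein VE-cadherin, had 275 and 235 against 51 and 62 (5.39) and held ETS-IRF. It was at the same time the endothelial marker with the greatest pileup in WT.

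Members lay near each other more often than their overall share. The next shared region along the chromosome was also a member after 95 of 1134 members (8.38%), against 2.99% of all shared regions, and it was strengthened after 33 (2.91%). Strengthened regions did the same, with a strengthened one next after 204 of 1716 (11.9%, against 4.53%). Of the members, 279 (24.6%) lay within 50 kb of another. There were 19 groups of 3 or more, each member within 50 kb of the next. Neither of these counts was made for strengthened or other shared regions, so no background stands beside them. The largest held 5 members over 59.1 kb from beyond the 3′ end of Wscd2 to the start of Cmklr1, which encodes the receptor for chemerin (chr5:113591825-113650958), with ratios of 2.15 to 7.46. At Cmklr1 4 of 6 shared regions were members, among them 2 at promoters. The promoter member 74 bp from a start of Cmklr1 had 94 and 66 against 29 and 45 (2.27) and held ETS-IRF, and the other, 162 bp from a start, had 55 and 40 against 22 and 26 (2.15) and did not. Fyn, a Src-family kinase gene, had 4 members of 7 shared regions, its promoter included, with 257 and 267 against 122 and 167 (2.02). Neither gene had a strengthened region, which with 6 and 7 shared regions is near the 4.53% of all shared regions. The annotation's Gm20388, which spans 181 shared regions of many genes, had 4 as well. Mbp, the gene of myelin basic protein, had 3 members of 12, with a highest ratio of 5.2. The summed pileup of the 6 oligodendrocyte promoters was lower in IRF8KO, while the Mbp promoter itself had 1.06 and 0.798 in WT and 0.495 and 0.982 in IRF8KO. By chromosome the share of members ran from 1.72% on chromosome 11 (1.3 to 2.27) to 4.65% on chromosome 12 (3.69 to 5.85). On chromosome 8 it was 2.62%, and within 10 Mb of Irf8 10 of 464 regions (2.16%) were members.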

How the data were processed

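Each of the 2 WT and 2 IRF8KO libraries has 1 deposited peak list. The authors ran MACS2 2.1.1.20160309 on every library alone, per the file headers, at a p cutoff of 0.01, without a control. The submitters' processing notes also name bcl2fastq, Bowtie2 and deepTools, and the build mm10, which is GRCm38. Pileup was deposited as a signal, a whole-number count of extended cut sites over the summit that is unscaled for library size. Fold enrichment was deposited as a ratio over local background. The deposited p and q are −log10 values. Pileups were set across lists after division by each library's own median, which assumes that the typical shared region is equally open in all of them.

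Intervals repeated for several summits were reduced to distinct peaks. Regions were merged by overlap with Python 3.11.15, pandas 2.3.3 and numpy 2.4.6 and placed with GENCODE M21 (protein-coding and long non-coding genes). Sequences were read from GRCm38. Shares carry 95% Wilson intervals (scipy 1.17.1), which cover counting error only and treat neighbouring regions as independent. No significance test was run, since the contrast chose the members. The code of the rule was checked on made-up peaks without counting noise, which does not measure its error rate in data like these. Members, motifs and gene lists were chosen with earlier results of these data known. Genes were named mostly by rule: the 25 largest ratios, up to 5 members per gene list by ratio, and genes with 3 or more members in or within 10 kb. The promoters of Bbc3 and Cdh5 were picked after their values had been seen, and the sequences of 41 bases because they held ETS-IRF. Sequences were printed over the searched window of 201 bases, wider than first planned, so that the motif shows, and over 41 bases at listed genes. Alternatives covered the floor, scaling, ratio, measure, merging, chromosomes, motif window, promoter distance and each library left out. Pileup on chromosomes X and Y was left out of the main count.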

Additional observations from a re-analysis of the deposited data

How the results depend on the processing

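The number of members, 1134 as reported, depended most on the thresholds. It was 333 with a floor of 0.5 per 1000000 tags, 2658 with no floor, 1919 with strict peaks (−log10 q of 2 or more) in place of the floor, 2694 at a ratio of 1.5, 345 at a ratio of 3 and 413 with fold enrichment in place of pileup. It was 1920 with geometric means per genotype, an alternative chosen after seeing the data. Leaving out 1 library gave 1387 to 2585, the highest without IRF8KO replicate 1. The other alternatives stayed within 1.5 times. The ETS-IRF share of members minus that of other shared regions was 16.1 percentage points (95% interval 13.9 to 18.5) and stayed positive throughout. It was 13.6 when scaled by header tags, which moved the median of all regions by 0.28 (log2, WT over IRF8KO), 12 at a ratio of 1.5, 10.6 in windows of 50 bp on each side, 12.1 around the middle of the region, 13 to 14.3 with 1 library left out, and 13.6 over distal regions with a WT level from 1 to under 4, chosen after seeing the data. Without regions at marker genes of other cell types, also added later, it was 16, with 1128 members. The promoter share of members minus that of the others was -25.6 points. It was -35.4 with the floor of 0.5, -22.3 with strict peaks, -22.6 by header tags, -29 at a ratio of 3 and -27.1 to -22.7 with 1 library left out. As a description of the same 4 libraries, the share of regions chosen on 1 pair that stayed past the threshold in the other pair, 58.3%, was 55.1% with the floor of 0.5, 55% by header tags (SD 37 over the 4 choices) and 43.9% with fold enrichment. The cause of these shifts was not tested, beyond the fewer or more regions each threshold leaves. No paired analysis was made, since the labels do not say that libraries with the same number belong together. The floor of 0.25 per 1000000 tags limits how low a member can be: 286 members lay under 0.3 in an IRF8KO library. Depth limits single values, as the counting intervals of the median pileups show.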

Other observations

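Further loci held several weakened regions. Gxylt1, which encodes a xylosyltransferase, had 3 members of 8 shared regions with a highest ratio of 4.94. Map4k4, a kinase gene, had 3 of 16 (3.17), Rasa3, which encodes a GTPase-activating protein of Ras family GTPases, had 3 of 13 (3.16), and Trappc9 had 3 of 13 (3.12). Basp1 had 3 of 14 (3.16), Pde4d, a cyclic AMP phosphodiesterase gene, 3 of 24 (2.52), Frmd4a 3 of 15 (2.54), Magi1 3 of 7 (2.07) and the non-coding gene Gm26561 3 of 34 (2.83). None of Gxylt1, Map4k4, Trappc9, Magi1 and Gm26561 had a strengthened region. Over all shared regions 4.53% were strengthened, so with so few regions per gene this absence is not far from that share.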
